A study of Rattus norvegicus with 6 samples.

Results

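The genes described here carry out inhibitory transmission by GABA and glycine and the chloride transport on which it depends: Gad1, Gad2, Slc32a1, Slc6a5, Glra1, Glra3, Glrb, Slc12a5 and Slc12a2. They were chosen by gene name, 9 of the 30957 rows of the gene table, and all 9 had enough counts to be tested. RNA was sequenced from the spinal cord of Wistar rats, adult females by the study's methods, 14 days after Walker 256 cells, a rat mammary carcinoma line, were placed in the marrow cavity of the left tibia. Rats with bone cancer pain (BCP) received living cells, and the sham controls had the same operation with heat-killed cells, so that both groups share the bone surgery and the injection of tumour cells. The tissue was the lumbar enlargement on the operated side without its meninges, with dorsal and ventral horns and white matter together, and each group had 3 libraries of ribosomal-RNA-depleted, strand-specific total RNA. The model rests on a single tumour line, and the sources used here do not say whether a library is 1 rat or a pool, so the p-values measure the spread between these samples.

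In the dorsal horn, interneurons that release GABA, glycine or both restrain the neurons that relay touch and pain to the brain. Glutamate decarboxylase makes GABA, a vesicular transporter loads GABA and glycine into synaptic vesicles, and the transmitters open chloride channels on the receiving neuron. Whether chloride then flows in or out depends on a pair of cotransporters, KCC2, which extrudes chloride from mature neurons, and NKCC1, which loads it into many cell types. Reduced inhibition in the spinal cord, through loss of transmitter, receptor or chloride extrusion, is a long-studied candidate in chronic pain.

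Gene counts per library were 13366905, 14490611 and 15004290 for sham and 11779485, 13764758 and 12962115 for BCP. Markers of the labelled tissue were abundant in all libraries, with Mbp of myelin at 12610 to 21530 CPM (read counts scaled to a common library size), Gfap of astrocytes at 2163 to 4440 CPM and Snap25 of neurons at 1738 to 1943 CPM. The cell makeup of the RNA differed between the groups. Of 16 tested markers of microglia and macrophages, 12 were higher in BCP, and their summed level went from 471 to 599 CPM in sham to 1325 to 1608 in BCP, with Siglech at 0 throughout. All 8 tested T cell markers were also higher (summed CPM 6.35 to 6.71 against 54.1 to 64.5), as were all 6 of red blood cells (251 to 268 against 483 to 699). In the opposite direction, 13 of 14 oligodendrocyte markers were lower, and their summed CPM fell from between 41620 and 47090 to between 30140 and 33440. In such bulk tissue, fewer cells of a type and less RNA per cell cannot be told apart.

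Of the 9 genes, 5 were lower in BCP than in sham and none was higher. These were Slc32a1, Slc12a5, Glra1, Slc12a2 and Slc6a5, with falls of 10.7% to 19.7%. The remaining 4, Gad1, Gad2, Glrb and Glra3, did not pass the test. The call was an adjusted p under 0.05 in edgeR's quasi-likelihood test, with Benjamini-Hochberg adjustment over all 14908 tested genes. Across those genes, 12.1% were called lower and 15.8% higher. None of the 9 changed more than 2-fold, a change that 0.107% of tested genes passed downwards and 6.35% upwards. The median log2 fold change of the 9 was -0.16, that of all tested genes was -0.01 and that of tested genes at a like level, defined next, was -0.07. The 9 are mostly well expressed, and small changes are called more often where counts are high. Among the 2716 tested genes at or above the level of the second-lowest of the 9 (85.3 CPM), 33.1% were called lower, against 5 of the 8 inhibitory genes there.

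**Figure D1:**
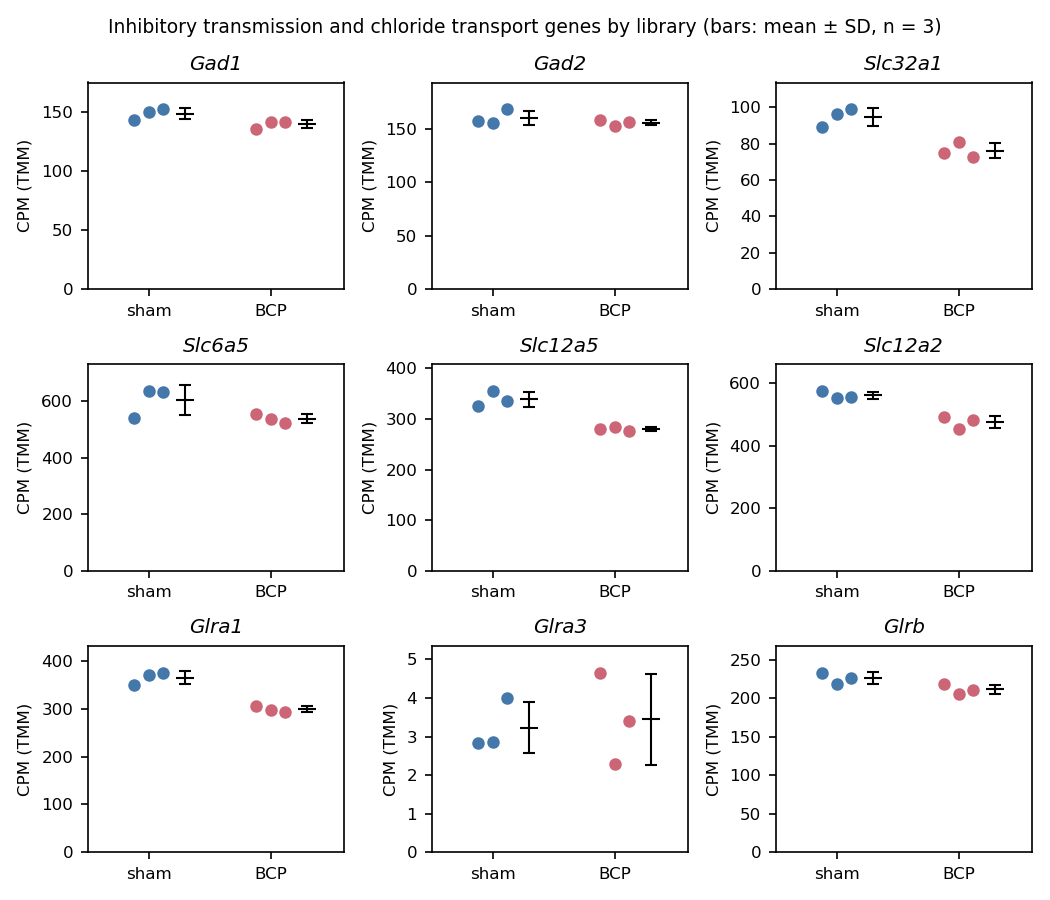
CPM, TMM-scaled, of each of the 9 genes (1 panel each, vertical axis from 0) in the 3 sham and 3 BCP libraries, with points for libraries and bars for the group mean ± SD. Slc32a1, Slc12a5, Slc12a2 and Glra1 show BCP points clear of the sham points, and Gad2 and Glra3 show mixed points.

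Neither enzyme of GABA synthesis passed the test. Gad1 encodes GAD67, the decarboxylase that makes most of the GABA of a neuron. Gad1 (ENSRNOG00000000007, Rnor_6.0 chr3:56861396-56902157) was measured at 143, 150 and 153 CPM in the sham libraries and at 136, 142 and 142 CPM in the BCP libraries. All BCP libraries lay below all sham libraries, but the gap between the nearest libraries was 0.813%, and the log2 fold change of -0.09 (SE 0.05) had an adjusted p of 0.218 in edgeR. Gad2 encodes GAD65, the form tied to synaptic terminals. Gad2 (ENSRNOG00000018200, chr17:89171250-89238040) was measured at 157, 156 and 168 CPM in sham and at 158, 153 and 156 CPM in BCP. The groups overlapped, the log2 fold change was -0.04 (SE 0.05) with an adjusted p of 0.588, and the 95% interval, -0.14 to 0.06, leaves room for a fall of the size seen in Gad1 but not for that of Slc32a1.

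The vesicular transporter had the lowest log2 fold change of the 9, by a margin smaller than its own error. Slc32a1 encodes VGAT, the transporter that fills vesicles of all GABA and glycine terminals. Slc32a1 (ENSRNOG00000015393, chr3:155103150-155107817) was measured at 89.1, 96.0 and 98.7 CPM in sham and at 74.6, 80.6 and 72.6 CPM in BCP. The groups did not overlap, with a gap of 10.5%, and the level fell by 19.7%, a log2 fold change of -0.32 (SE 0.06, adjusted p = 0.000434 in edgeR).

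Slc6a5 encodes GLYT2, which returns glycine to the terminals of glycinergic neurons. Slc6a5 (ENSRNOG00000031662, chr1:105284753-105336363) was measured at 542, 636 and 632 CPM in sham and at 556, 538 and 524 CPM in BCP. Sham 1 lay within the range of the BCP libraries, and the other two sham libraries lay above all of them. The log2 fold change was -0.16 (SE 0.06) with an adjusted p of 0.0363 in edgeR. This call was the least secure of the 5. It was lost without sham 2 (adjusted p = 0.165), sham 3 (0.148), BCP 1 (0.0721), BCP 2 (0.117) or BCP 3 (0.151), whereas without sham 1 the log2 fold change was -0.23 with an adjusted p of 0.0011.

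Among the glycine receptor subunits, the main adult ligand-binding subunit fell, and the other 2 did not pass the test. Glra1 encodes the alpha-1 subunit, mutated in hereditary startle disease. Glra1 (ENSRNOG00000013588, chr10:40855559-40953651) was measured at 350, 369 and 375 CPM in sham and at 306, 297 and 293 CPM in BCP. The groups were separated by 14.4%, and the log2 fold change was -0.29 (SE 0.04, adjusted p = 4.48e-05 in edgeR), a fall of 18.1%. Glrb encodes the beta subunit, which binds gephyrin and holds the receptor at the synapse. Glrb (ENSRNOG00000010199, chr2:179769009-179842547) was measured at 233, 218 and 227 CPM in sham and at 218, 206 and 211 CPM in BCP. Sham 2 and BCP 1 were 0.068% apart, so the groups only just failed to overlap, and the log2 fold change of -0.10 (SE 0.05) had an adjusted p of 0.135.

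Glra3 encodes the alpha-3 subunit, found in the superficial dorsal horn and linked to inflammatory pain. Glra3 (ENSRNOG00000049792, chr16:37676962-38063821) had only 37, 41 and 59 counts in sham and 55, 32 and 45 counts in BCP. These were 2.82, 2.86 and 3.99 CPM in sham and 4.65, 2.29 and 3.41 CPM in BCP, with the highest and the lowest library both in BCP. The log2 fold change was 0.08 (SE 0.26, adjusted p = 0.866), and its 95% interval ran from -0.48 to 0.63, so a change of the size seen in Glra1 was not detectable at this depth.

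Both chloride cotransporters fell. Slc12a5 encodes KCC2, which keeps chloride low in mature neurons. Slc12a5 (ENSRNOG00000018111, chr3:161425988-161462879) was measured at 326, 355 and 335 CPM in sham and at 279, 285 and 276 CPM in BCP. The sham libraries were all higher, by at least 14.4%, and the log2 fold change was -0.27 (SE 0.05, adjusted p = 9.98e-05 in edgeR), a fall of 17.3%. Slc12a2 encodes NKCC1, which brings chloride into neurons, glia and epithelia. Slc12a2 (ENSRNOG00000015971, chr18:52917124-52985261) was measured at 575, 554 and 555 CPM in sham and at 492, 455 and 482 CPM in BCP. These groups were separated by 12.5%, and the log2 fold change was -0.24 (SE 0.04, adjusted p = 0.000308), a fall of 15.1%. Over the 9 genes, all BCP libraries lay below all sham libraries for 6 genes, which 19.8% of all tested genes did. The 6 include Gad1 and Glrb, which did not pass the test and had gaps of only 0.813% and 0.068%. The share among tested genes at a like level was not computed.

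Because NKCC1 and KCC2 move chloride in opposite directions, their ratio was computed within each library, where any scaling of the library cancels. The ratio of Slc12a5 to Slc12a2 counts was 0.566, 0.641 and 0.603 in sham and 0.567, 0.625 and 0.573 in BCP. The groups overlapped, and the log2 ratio went from -0.73 ± 0.09 (SD, n = 3) to -0.77 ± 0.08, a difference of -0.04 with a 90% interval of -0.18 to 0.14 (exact two-sided permutation test, p = 0.7). The 2 mRNAs thus fell with no detectable change of their ratio, although the interval does not show that the ratio was the same. Since NKCC1 serves neurons, glia and epithelia and KCC2 mature neurons, a ratio in bulk tissue does not give the balance within neurons.

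In all, 5 such ratios were compared, and 3 against 3 libraries cannot give a p under 0.1 in the exact two-sided permutation test. The ratio of Glra1 to Glrb was 1.501, 1.693 and 1.650 in sham and 1.404, 1.440 and 1.389 in BCP, lower in all BCP libraries, with a log2 difference of -0.19 (90% interval -0.28 to -0.06, exact permutation p = 0.1, adjusted p = 0.25 over the 5 ratios). The ratio of Slc6a5 to Slc32a1 was 6.09, 6.63 and 6.40 in sham and 7.46, 6.67 and 7.21 in BCP, higher in all BCP libraries, with a log2 difference of 0.16 (90% interval 0.0079 to 0.29, exact permutation p = 0.1, adjusted p = 0.25). These are the lowest p-values the design allows, and neither passed. The ratio of Gad2 to Gad1 differed by 0.04 on the log2 scale (exact permutation p = 0.5) and that of Glra3 to Glra1 by 0.34 (exact permutation p = 0.4), and both overlapped between groups. Leaving out 1 library moved the difference for Glra3 to Glra1 to between 0.12 (without BCP 1) and 0.61 (without BCP 2), and that for Gad2 to Gad1 to between 0.014 (without BCP 1) and 0.067 (without BCP 2).

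**Figure D2:**
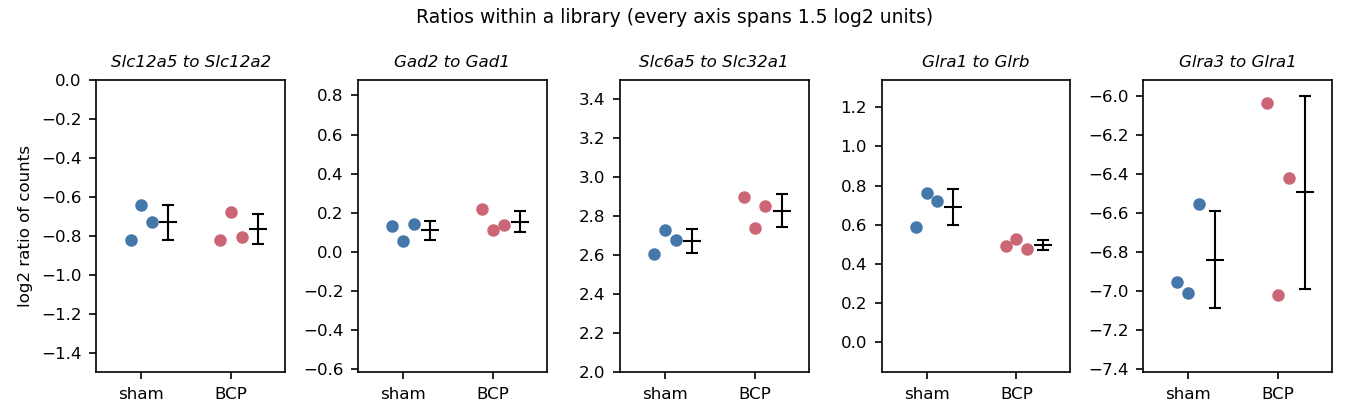
Log2 ratio of the counts of paired genes within each library (1 panel per ratio), with points for the 3 sham and 3 BCP libraries and bars for the group mean ± SD. Slc12a5 to Slc12a2 overlaps between groups, and Glra1 to Glrb and Slc6a5 to Slc32a1 do not.

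Levels between genes were compared in the authors' FPKM, which divides by gene length and depth. Glra1 stood highest at 134 ± 13.1 FPKM (SD over the 6 libraries of both groups), followed by Slc12a5 at 88.9 ± 8.42, Slc12a2 at 80.9 ± 6.32 and Slc6a5 at 79.0 ± 6.12. Next came Glrb at 58.9 ± 1.85, Slc32a1 at 35.7 ± 4.14, Gad2 at 28.4 ± 0.815 and Gad1 at 26.4 ± 0.909, and Glra3 was lowest at 1.96 ± 0.509. The order of neighbours was the same in 6 of 6 libraries except for Slc12a2 and Slc6a5, which were in the stated order in only 2 of 6 and were not separated. In FPKM, Glra1 exceeded Glra3 by between 45.3-fold and 89.4-fold across libraries. The mRNA of the ligand-binding subunit of most adult glycine receptors was thus by far the more abundant of these 2 in this tissue. How reads were shared between Glra3 and the lncRNAs that overlap it is not given in the sources used here.

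**Figure D3:**
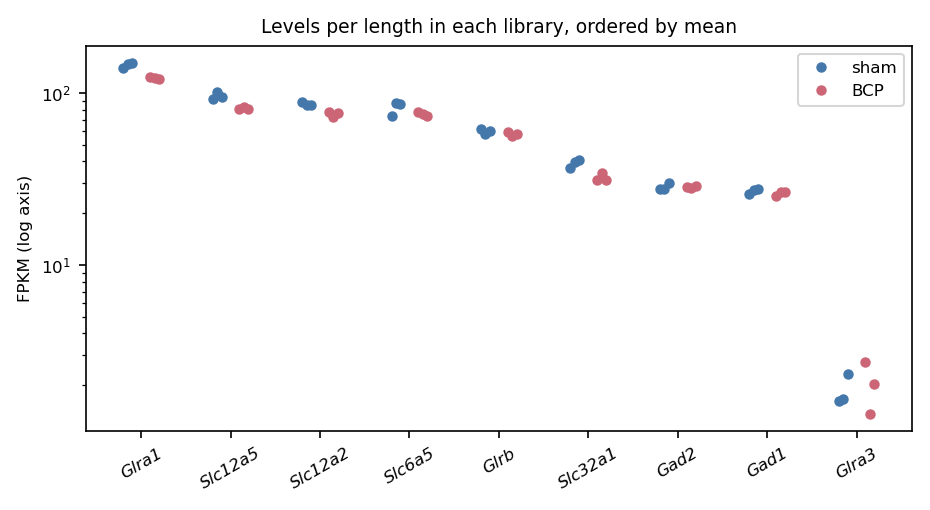
FPKM of the 9 genes on a log axis, with points for the 6 libraries by group, in order of the mean. Glra1 lies at the top, at 134 FPKM, and Glra3 at the bottom, at 1.96 FPKM.

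The promoters of these genes are shown because 5 of the 9 fell together. The windows are the 250 bases before the annotated start, from RefSeq on the GRCr8 build, and 8 of the 9 genes matched, all but Glra1. Slc12a5 (chr3:174115583-174115832), Slc12a2 (chr18:53546083-53546332), Slc32a1 (chr3:167686995-167687244) and Slc6a5 (chr1:108781303-108781552) are the matched genes that fell, and Gad1 (chr3:75777202-75777451) is shown beside them as a gene that did not pass the test. All 5 lie on the plus strand, 5' to 3', and capitals mark matches to any of the motifs searched.
Slc12a5: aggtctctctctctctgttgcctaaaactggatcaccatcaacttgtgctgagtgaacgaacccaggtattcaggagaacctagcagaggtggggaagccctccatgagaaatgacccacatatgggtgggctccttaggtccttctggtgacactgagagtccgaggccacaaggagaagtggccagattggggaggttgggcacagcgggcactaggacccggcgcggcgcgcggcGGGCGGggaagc
Slc12a2: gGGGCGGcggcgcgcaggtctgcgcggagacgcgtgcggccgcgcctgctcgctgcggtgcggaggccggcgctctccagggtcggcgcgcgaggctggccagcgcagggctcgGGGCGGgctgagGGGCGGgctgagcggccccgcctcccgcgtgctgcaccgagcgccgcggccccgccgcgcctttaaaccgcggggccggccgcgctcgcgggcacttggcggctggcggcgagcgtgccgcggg
Slc32a1: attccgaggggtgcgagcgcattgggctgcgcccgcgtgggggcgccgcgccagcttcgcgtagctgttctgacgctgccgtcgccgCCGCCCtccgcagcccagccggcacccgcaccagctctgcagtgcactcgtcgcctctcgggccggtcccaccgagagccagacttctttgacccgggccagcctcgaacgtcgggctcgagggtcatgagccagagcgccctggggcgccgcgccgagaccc
Slc6a5: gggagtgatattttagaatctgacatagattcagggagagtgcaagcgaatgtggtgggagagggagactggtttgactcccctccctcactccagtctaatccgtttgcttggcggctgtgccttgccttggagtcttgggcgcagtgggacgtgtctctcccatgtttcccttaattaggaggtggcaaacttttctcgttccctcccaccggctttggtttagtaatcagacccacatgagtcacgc
Gad1: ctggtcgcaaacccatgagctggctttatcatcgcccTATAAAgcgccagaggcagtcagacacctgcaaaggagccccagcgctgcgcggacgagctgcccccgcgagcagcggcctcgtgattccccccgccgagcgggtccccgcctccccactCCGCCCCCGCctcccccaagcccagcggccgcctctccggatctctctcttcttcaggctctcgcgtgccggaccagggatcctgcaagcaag

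The motifs searched on both strands were the GC box GGGCGG, the TATA box TATAAA, the cAMP response element TGACGTCA, the EGR site GCGGGGGCG, which can overlap a GC box, and the E box CACGTG. Slc12a2 held 3 GC boxes, Slc12a5 and Slc32a1 held 1 each and Slc6a5 held none, and a GC box was present in 30.5% of the 33469 windows of the same length. Gad1 held a GC box, an EGR site overlapping it and a TATA box, motifs of which the last 2 occur in 2.45% and 12.9% of windows. The other matches were a GC box with an overlapping EGR site in Glra3 and 2 GC boxes in Glrb, while Gad2 had none. The cAMP response element (1.59% of windows) and the E box (5.59%) were found in none of the 8. No motif was shared by the 4 matched genes that fell, and their GC content ran from 52.4% in Slc6a5 to 83.2% in Slc12a2, all above the median of 51.2% over all windows. A match describes letters and not a site in use.

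General neuron markers moved with the inhibitory genes. Of the 20 neuron markers tested, 15 were lower in BCP and none was higher, against 12.1% and 15.8% of all tested genes. Among tested genes at or above 85.3 CPM, 33.1% were called lower. The neuron markers had a median log2 fold change of -0.19 and a range of -0.34 (Rbfox3, the nuclear antigen NeuN) to 0.06 (Elavl4). Their summed level was 16270 to 16690 CPM in sham and 13680 to 15060 CPM in BCP, a fall of 12.9%. The summed level of the 9 inhibitory genes was 2419 to 2547 CPM in sham and 2159 to 2225 CPM in BCP, a fall of 12.8%. The fall of Slc32a1 was exceeded by 1 of the 20 markers and that of Slc12a5 by 3, and 1 marker had a log2 fold change above that of Gad2. A lower median was not particular to neurons, as it was -0.34 for oligodendrocyte markers and -0.25 for astrocyte markers. The markers of microglia, T cells and red blood cells rose, as given above.

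When libraries were scaled to the summed counts of the 20 neuron markers in place of TMM, the median of all tested genes moved to 0.19 and 1 of the 9 genes was called. That gene was Gad2, which was then higher (log2 fold change 0.16, adjusted p = 0.0445 in edgeR), though still under the median of all genes. Under this scaling 33.7% of all tested genes were called higher and 1.19% lower. Slc32a1 was at -0.12 (adjusted p = 0.224), Glra1 at -0.09 (0.197), Slc12a5 at -0.07 (0.32) and Slc12a2 at -0.04 (0.622). Slc6a5 was at 0.04 (0.636), Gad1 at 0.12 (0.159), Glrb at 0.10 (0.159) and Glra3 at 0.27 (0.458). The 5 falls were thus calls under TMM scaling over all tested genes, and none of the 5 was called relative to the summed neuron markers. The most abundant 3 markers, Nefl, Nefm and Nefh, gave 47.5% of that sum. The missing calls do not show that the 5 genes were unchanged relative to neurons. The part of the microglial, T cell, red blood cell and oligodendrocyte shifts in these values was not tested.

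**Figure D4:**
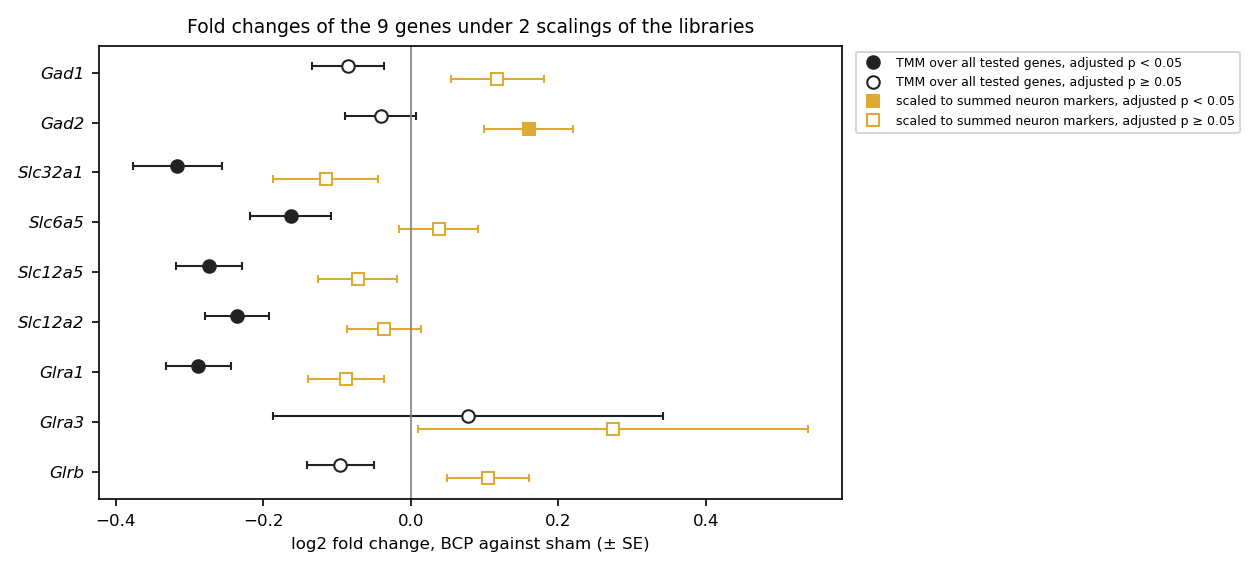
Log2 fold change of BCP against sham (horizontal axis) with bars of 1 SE from edgeR for the 9 genes, as black circles under TMM and yellow squares under scaling to the summed neuron markers, filled where the adjusted p was under 0.05. The 5 filled circles lie between -0.32 and -0.16, and the only filled square is Gad2, at 0.16.

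Of the 110 tested genes in 6 lists of the surrounding pathway, 38 were lower in BCP, 8 were higher and 64 did not pass the test. Of all tested genes, 12.1% were called lower and 15.8% higher. Among tested genes at or above 85.3 CPM, 33.1% were called lower, and the lists mix genes above and below that level. Whether the counts of the lists differed from these shares was not tested. Among 17 genes of GABA and glycine uptake and breakdown, 7 were lower and 1 was higher, with a median log2 fold change of -0.14. Slc6a9, the glial glycine transporter GLYT1, went from 412 ± 11.5 to 334 ± 11.6 CPM (SD, n = 3), a log2 fold change of -0.31 (adjusted p = 2.29e-05 in edgeR). The exception was Shmt1, a cytosolic enzyme that interconverts serine and glycine, which rose from 1.14 ± 0.233 to 3.63 ± 0.2 CPM, a log2 fold change of 1.67 (adjusted p = 9.97e-05), on 14 to 20 counts per library in sham and 42 to 54 in BCP.

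On the receiving side, 6 of 15 scaffold and trafficking genes were lower and 1 was higher. Gabarapl1, of the family that moves GABA-A receptors and builds autophagosomes, went from 427 ± 8.81 to 360 ± 6.33 CPM (log2 fold change -0.24, adjusted p = 0.000153 in edgeR), and its relative Gabarap from 117 ± 4.79 to 141 ± 6.97 CPM (0.27, adjusted p = 0.000653). These relatives moved in opposite directions under the 4 scalings over the whole gene table (TMM, library size, upper quartile and RLE). Under the neuron scaling, Gabarap was called higher (0.47, adjusted p = 1.18e-05) and Gabarapl1 was not called (-0.04, adjusted p = 0.532). Iqsec3, a partner of gephyrin, fell by 0.24 on the log2 scale (adjusted p = 0.000297). Of 16 tested glycine and GABA receptor subunits other than Glra1, Glra3 and Glrb, 6 were lower and none was higher, with a median of -0.18. Gabbr1, a subunit of the metabotropic GABA-B receptor, fell by 0.24 on the log2 scale (adjusted p = 0.000295) and Gabra3, a GABA-A subunit, by 0.25 (adjusted p = 0.00963).

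Around KCC2 and NKCC1, 10 of 25 cotransporters, sodium pumps and regulators were lower and 4 were higher, with a median of -0.11. Prkcd, a protein kinase C also strong in immune cells, changed most. It was measured at 29.3, 27.2 and 22.8 CPM in sham and at 59.6, 63.0 and 69.9 CPM in BCP. The groups were far apart, and the log2 fold change was 1.28 (SE 0.09, adjusted p = 3.05e-09 in edgeR). Ppp1ca, a catalytic subunit of protein phosphatase 1, rose by 0.23 (adjusted p = 0.0098), and Slc12a9, a relative of the cotransporters, rose by 0.38 (adjusted p = 0.0109). Atp1b2, a beta subunit of the sodium pump, fell by 0.26 on the log2 scale (adjusted p = 0.000128).

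Of 17 chloride and bicarbonate channels and exchangers, 6 were lower and 1 was higher, with a median of -0.16. Slc4a4, a sodium bicarbonate cotransporter abundant in astrocytes, fell by 0.44 on the log2 scale (adjusted p = 1.67e-06 in edgeR) and Clcn4, a chloride-proton exchanger, by 0.25 (adjusted p = 0.000605). Lrrc8c, a subunit of the volume-regulated anion channel, rose by 0.18 (adjusted p = 0.03). Beside the fall of Slc4a4, of 12 astrocyte markers 8 were lower and 1 was higher, although the summed CPM of that list was 16.5% higher in BCP. The higher marker was Gfap, which went from 2339 ± 158 CPM in sham to 4075 ± 356 in BCP. Without BCP 1, in which Aqp4 was at 2415 CPM against 360.0 and 361.6 in BCP 2 and BCP 3, the sum was 8.97% higher. Slc1a3, which was not called, was at 98.1 CPM in sham 1 against 250.9 and 254.5 in sham 2 and sham 3.

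The genes listed for classes of inhibitory interneurons are not all exclusive to such neurons. Of 20 of these genes tested, 3 were lower and 1 was higher, against 12.1% and 15.8% of all tested genes. Their median was -0.16, and Npy, which is listed at 0 in all 6 libraries although it marks a known dorsal horn class, could not be used. Sst, encoding somatostatin, which is also made by many excitatory dorsal horn neurons, fell by 0.27 on the log2 scale (adjusted p = 0.0138 in edgeR). Chrm2, a muscarinic receptor, fell by 0.20 (adjusted p = 0.0174) and Lbx1, a dorsal horn transcription factor, by 0.70 (adjusted p = 0.0345), the latter on 29 to 80 counts per library. Pdyn, encoding the opioid precursor prodynorphin, rose. It was measured at 16.8, 11.9 and 17.0 CPM in sham and at 26.0, 24.6 and 21.2 CPM in BCP. All BCP libraries were above all sham libraries, and the log2 fold change was 0.65 (SE 0.13, adjusted p = 0.000883).

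Scaled to the neuron markers, the medians of the 6 lists, from uptake to interneuron identity, moved to between 0.02 and 0.09, below the median of all genes under that scaling. Of the pathway genes named above as lower, Slc4a4 was still called lower (-0.25, adjusted p = 0.000546 in edgeR) and the others were not called. Over the full lists, 1 gene was called lower in each of the uptake, cotransporter and channel lists. Genes called higher numbered 3 in uptake, 3 in scaffold, 7 in cotransporters, 4 in channels, 3 in interneuron identity and 0 in receptor subunits. Of all tested genes, 33.7% were called higher and 1.19% lower under this scaling. The scaling adds about the same amount to the log2 fold change of every gene.

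**Figure D5:**
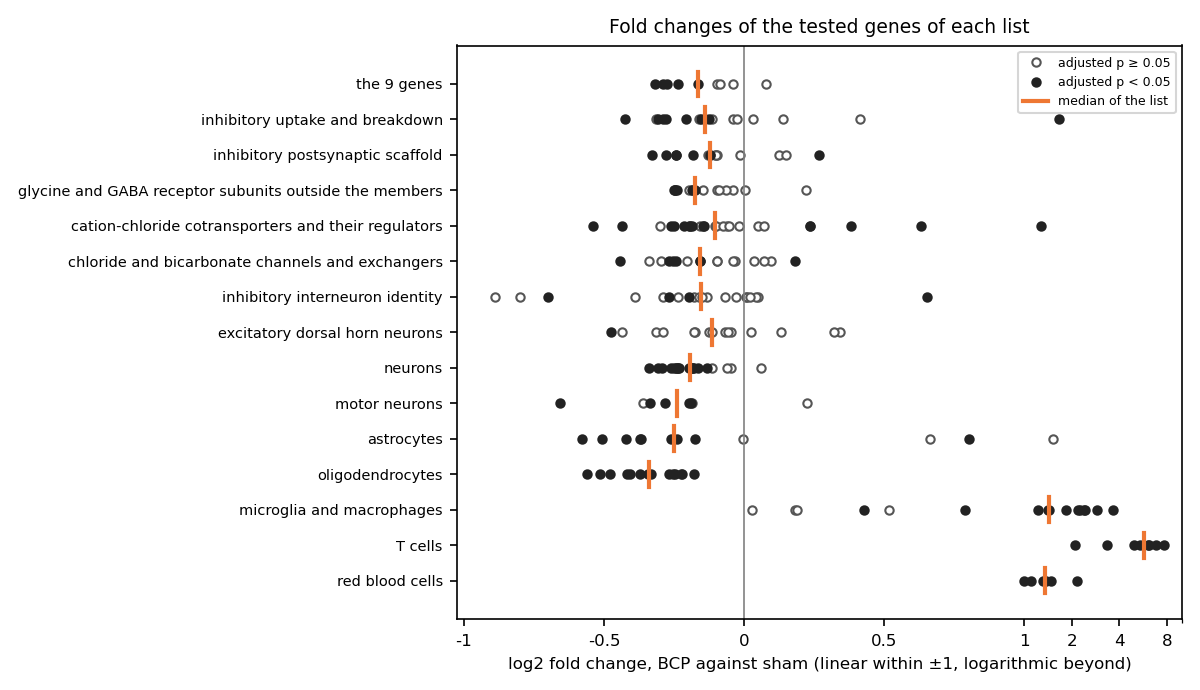
Log2 fold change of BCP against sham for every tested gene of each list (1 row per list, horizontal axis linear within 1 of 0 and logarithmic beyond), filled where the adjusted p was under 0.05, with an orange bar at the median. The inhibitory lists and the neuron list lie slightly left of 0, and the lists of microglia, T cells and red blood cells lie to the right.

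Long non-coding RNAs lie within or near several of these genes. In the authors' lncRNA table, 16 transcripts lay within 10 kb of 6 of the genes (14 of them overlapping the gene), and 12 had enough counts to be tested. None passed an adjusted p under 0.05 in edgeR, which 1.97% of the 12157 tested lncRNAs did, and 1 passed at an unadjusted p under 0.05. That transcript, MSTRG.12073.3, assembled by the authors inside the span of Glra3 (Rnor_6.0 chr16:37756132-37783735), had 131, 121 and 135 counts in sham and 81, 101 and 76 in BCP. All BCP counts were lower, and the log2 fold change was -0.44 (SE 0.15, adjusted p = 0.233). In all, 8 assembled transcripts lay in the span of Glra3, and several had more counts than Glra3 itself. At the end of Gad2, NONRATT012676.2 (chr17:89235826-89238011) had 856 to 1016 counts in sham and 768 to 875 in BCP, with a log2 fold change of -0.01. How reads in such overlaps were shared between the gene and the lncRNA table is not given in the sources used here.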

How the data were processed

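Groups and replicate numbers were taken from the labels (3 sham, 3 BCP). The authors mapped reads to Rnor_6.0 with HISAT2 2.0.4 and calculated FPKM with StringTie 1.3.0. The deposited gene table holds raw read counts and the authors' FPKM values, and a second deposited table holds counts of lncRNA transcripts. The read counter, its strand setting and its handling of multi-mapped reads are not given in the sources used here. Reads that fit more than 1 place or overlapping genes could therefore shift a count.

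Counts were tested in edgeR 4.0.16 (R 4.3.3) with TMM normalization, filterByExpr, a robust quasi-likelihood fit on condition alone and Benjamini-Hochberg adjustment over all 14908 tested genes of 20645 with counts, and separately over 12157 lncRNAs. The script was tested on simulated data. CPM values use TMM-scaled library sizes (factors 0.982 to 1.02), and total gene counts of 11779485 to 15004290 per library limit the precision of low genes. FPKM was used for levels only. Ratios were tested by exact permutation in SciPy 1.17.1. Log2 CPM profiles used a prior of 0.5. Replicates differed by more than counting noise (chi-square per degree of freedom 3.48 to 6.04), so none was counted as a duplicate.

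The alternatives were DESeq2 1.42.0, edgeR's exact test, other filters and scalings, a replicate block and leaving out each library. The genes and lists were chosen with earlier results of these data known. From the pathway lists the text names genes over 2-fold and, of the other genes that passed the test, the 2 with the smallest p in each direction (all where a list has 4 or fewer). A few of the genes so selected are not reported here.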

Additional observations from a re-analysis of the deposited data

How the results depend on the processing

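The calls of Slc32a1, Slc12a5, Slc12a2 and Glra1 held in all 14 alternatives outside the neuron scalings. The call of Slc6a5 held in 6 of those 14. Besides the left-out libraries, it was lost in edgeR's exact test (adjusted p = 0.125), with library sizes alone (log2 fold change -0.12, adjusted p = 0.127) and with a replicate block (adjusted p = 0.0637). Glrb was gained with upper-quartile scaling (-0.13, adjusted p = 0.0401). Leaving out a library, the number of the 9 genes called was 4 to 5, the log2 fold change of Glra3 ranged from -0.18 to 0.31, and the log2 ratio of Slc12a5 to Slc12a2 differed by -0.081 to 0.0087.

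With the replicate block, 4 of the 9 genes were called. Replicate numbers did not pair the libraries, as same-numbered deviations correlated at -0.11, 0.0543 and -0.0353, and the block changed no other call of the 9. A requirement of more than 2-fold left 0 called.

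Scaling to the neuron markers left 1 called and turned Gad1 (0.12), Gad2 (0.16), Slc6a5 (0.0375) and Glrb (0.10) positive. A pair of further scalings was chosen after seeing the data. Without the neurofilament genes, 0 were called, with Gad1 at 0.087, Gad2 at 0.13, Slc6a5 at 0.0079 and Glrb at 0.073. Slc32a1 (-0.15, adjusted p = 0.106 in edgeR), Glra1 (-0.12, 0.0511), Slc12a5 (-0.10, 0.113) and Slc12a2 (-0.07, 0.297) stayed negative. With the median ratio of the markers, 1 was called, with Gad1 at 0.12, Gad2 at 0.16, Slc6a5 at 0.041 and Glrb at 0.11. Slc32a1 (-0.11), Glra1 (-0.08), Slc12a5 (-0.07) and Slc12a2 (-0.03) again stayed negative. The cause was not tested. Depth limited Glra3, which had 32 to 59 counts per library.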

Other observations

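Excitatory neurons of the dorsal horn were described by 15 tested genes, with a median log2 fold change of -0.12. Of these, 1 was lower in BCP and none was higher, against 12.1% and 15.8% of all tested genes. Several of the 15 had few counts. Grpr, at 2.52 CPM in sham, was at -0.44 (SE 0.29) and was not called (adjusted p = 0.306 in edgeR). The gene called lower was Reln, encoding the secreted protein reelin. It went from 216 ± 7.23 to 155 ± 8.92 CPM (SD, n = 3), a log2 fold change of -0.47 (adjusted p = 4.9e-07 in edgeR). Slc17a6, the vesicular glutamate transporter VGLUT2 and the excitatory counterpart of Slc32a1, was measured at 222, 213 and 225 CPM in sham and at 240, 214 and 216 CPM in BCP. The groups overlapped, and its log2 fold change was 0.02 (SE 0.05, adjusted p = 0.775). Whether Slc17a6 and Slc32a1 differed in their response was not tested. Of 8 tested motor neuron markers, 5 were lower and none was higher, against the same shares of all tested genes. Their median was -0.24.

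Over the 6 libraries, the genes whose log2 CPM was most like the mean standardised profile of the 9 genes were Ints3 (Pearson r = 0.997), Ppp1r12b (0.997), Gnao1 (0.997), Sgsm1 (0.996) and Leng8 (0.994), and 276 of 14899 genes had r over 0.95. For Slc12a5 alone they were Kcnc4 (0.999), Tnk2 (0.998) and Map3k9 (0.998). The libraries share the contrast between groups, so these values are a description.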
